A study of Arabidopsis thaliana with 6 samples.

Results

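GLABRA1 (GL1), WEREWOLF (WER), GLABRA3 (GL3), GLABRA2 (GL2), CAPRICE (CPC), TRIPTYCHON (TRY) and ENHANCER OF TRY AND CPC 1 (ETC1) are genes that decide which epidermal cells of Arabidopsis thaliana form trichomes on the shoot or hairs on the root. These 7 genes were chosen by locus tag, and they are 7 of the 27444 protein-coding genes on the 5 nuclear chromosomes of the gene table. Binding of SWINGER (SWN), a catalytic subunit of Polycomb repressive complex 2, was mapped at them by ChIP-seq, the sequencing of DNA that an anti-GFP antibody pulls down with the tagged protein. One genotype, SWN-GFP val1 val2 (the double mutant), carried pSWN:SWN-GFP in a swn val1 val2 mutant, and the other, SWN-GFP, carried pSWN:SWN-GFP in a swn mutant whose VAL1 and VAL2 are functional. Both genotypes were grown to seedlings 14 days old, both are swn mutants, and both express the tagged protein from the SWN promoter. Each genotype had 2 immunoprecipitated libraries and 1 input library, and a peak list for each of the 4 immunoprecipitated libraries was analysed. The title of the series concerns recruitment of SWN by VAL1 and VAL2, a pair of B3-domain DNA-binding repressors, and the comparison asks how SWN peaks at these genes differ without them.

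In trichome and root hair fate, an R2R3-MYB activator (GL1 in the shoot, WER in the root) joins a basic helix-loop-helix protein such as GL3 and the WD-repeat protein TTG1 in a complex. The complex switches on GL2, a homeodomain-leucine zipper factor that promotes trichome formation and holds back root hairs. It also switches on small R3-MYB proteins such as CPC, TRY and ETC1, which lack an activation domain, move to neighbouring cells, and compete with the MYB activators for the helix-loop-helix partner. Polycomb repressive complex 2 methylates histone H3 and keeps developmental genes silent in cells where they are not needed. The libraries came from whole seedlings, so a peak can arise in many cells or few, and SWN on fewer cells cannot be told apart from less SWN per cell.

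The lists held 9177 and 9618 peaks in SWN-GFP val1 val2, against 8189 and 8666 peaks in SWN-GFP. A peak was assigned to a gene when it overlapped the gene span or the 1000 bp on either side by at least 1 bp, and this stretch is called the window. Fold is the authors' enrichment of the pileup over the local background at a summit, and its percentile ranks a peak within its own list. The median fold of a list was 2.94 and 2.83 in SWN-GFP val1 val2, against 3.12 and 2.99 in SWN-GFP. An equal fold can therefore rank higher in a double mutant list. Folds belong to separately called lists of unknown depth, and were not tested between genotypes. With 2 libraries against 2, an exact permutation test cannot give a p below 0.33. No difference in covered length could therefore pass 0.05, and a difference is described by whether the libraries of the genotypes overlap. Nothing in the labels shows that the libraries came from separate plantings, so the spread between replicates may be technical. With 1 input library per genotype, the lists of a genotype may also share a control, which could not be checked.

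Of the 7 genes, GL1, GL3 and GL2 had a peak in all 4 lists (kept), TRY had one in 3 lists, CPC in 1 list, and WER and ETC1 in none. Across protein-coding genes 18.1% were kept and 58.4% had no peak in any list. None of the 7 was lost (a peak in both SWN-GFP lists only), where 4.05% of protein-coding genes were, and none was gained (a peak in both double mutant lists only), where 4.89% were. TRY and CPC fall in neither of these classes and are called mixed, as 14.5% of protein-coding genes were. The genes with peaks differed in direction. GL3 was covered less in both lists of the double mutant than in either SWN-GFP list, against 10.9% of protein-coding genes. GL2, which was kept, and TRY, which was mixed, were covered more in both, against 13.3% of protein-coding genes. At GL1 and CPC the genotypes overlapped. The member windows held 16 peaks in SWN-GFP val1 val2, against 16 in SWN-GFP, with 12 summits inside the gene spans in each genotype.

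**Figure D1:**
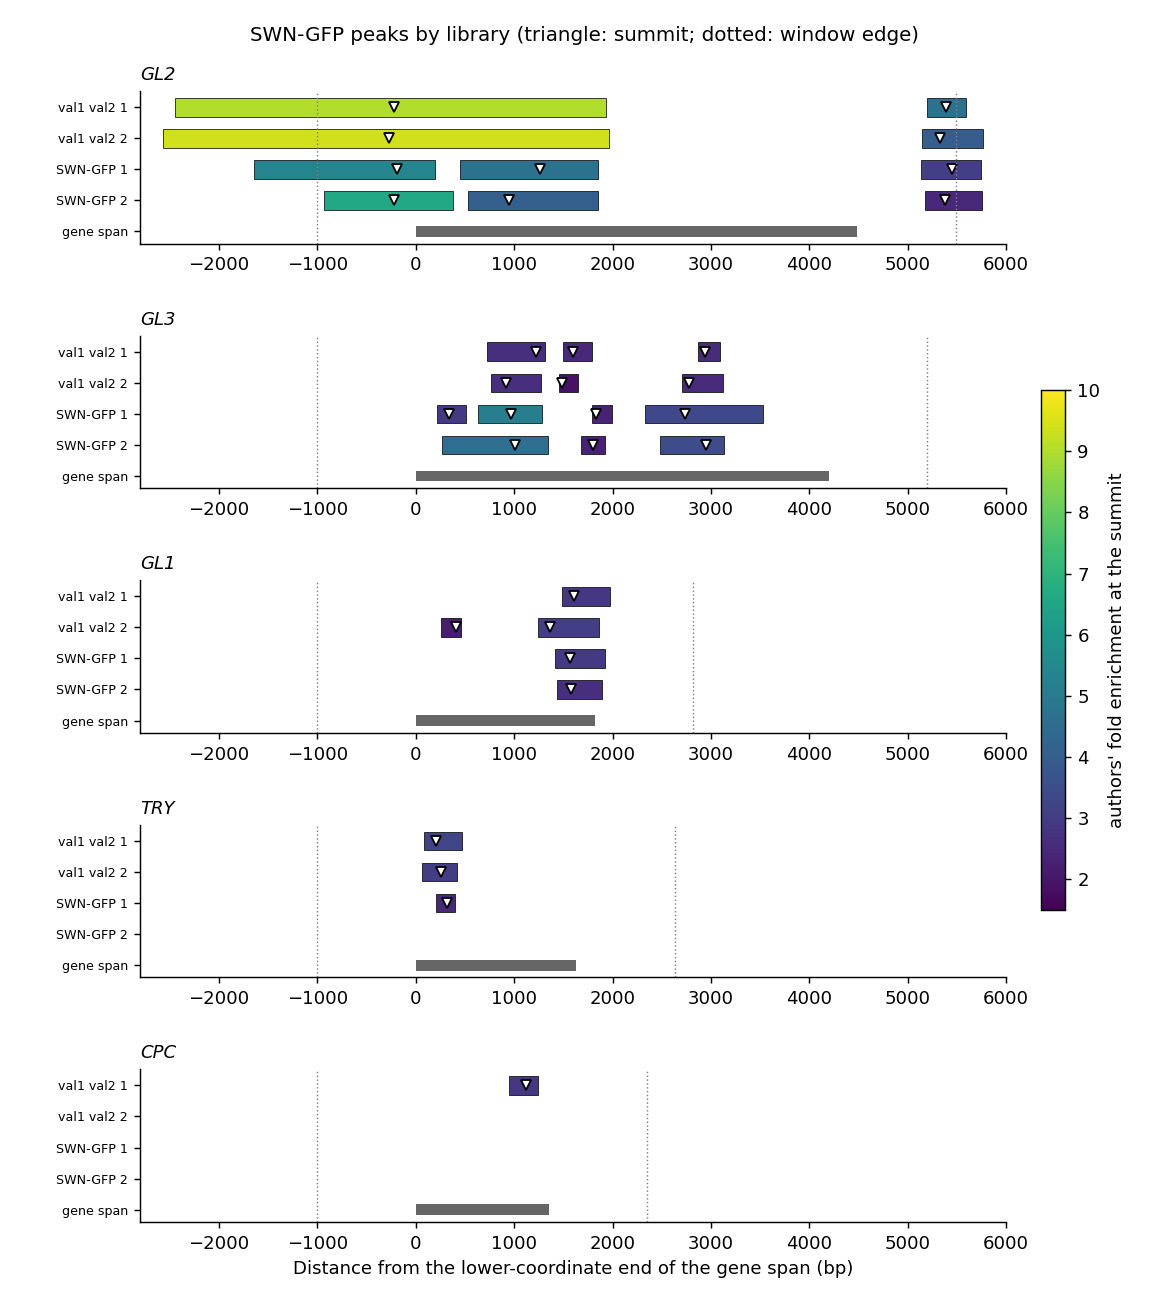
Peaks of each library (rows; val1 val2 stands for SWN-GFP val1 val2, numbers are replicates) at GL2, GL3, GL1, TRY and CPC, against distance in bp from the lower-coordinate end of the gene span. Colour gives the authors' fold, triangles mark summits and dotted lines the window edges; GL2 shows 1 long peak in SWN-GFP val1 val2 where SWN-GFP has 2 shorter ones, and GL3 shows shorter, weaker peaks in SWN-GFP val1 val2.

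The summed windows of the 7 genes were covered over 5500 and 5587 bp in SWN-GFP val1 val2, against 6002 and 5374 bp in SWN-GFP. These sums overlap and hide opposite members. Without GL3 the sums were 4390 and 4471 bp in SWN-GFP val1 val2, against 3653 and 3397 bp in SWN-GFP. Without GL2 they were 2281 and 2284 bp in SWN-GFP val1 val2, against 3057 and 2439 bp in SWN-GFP.

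GL1 (AT3G27920), the R2R3-MYB activator of trichome initiation, carried a weak peak at the same place in every list. The peak lay at chromosome 3, 10363273 to 10363760 and 10363029 to 10363649 in the double mutant lists, and 10363205 to 10363712 and 10363224 to 10363685 in the SWN-GFP lists (TAIR10). All 4 summits lay inside the GL1 span, between 205 and 452 bp from its upper-coordinate end in SWN-GFP val1 val2, against 253 and 238 bp from it in SWN-GFP. The peak ran over that end in each list. Fold was 2.85 and 3.03 in SWN-GFP val1 val2, against 2.90 and 2.66 in SWN-GFP, so the genotypes overlapped. The percentiles were 46.2 and 58.1 in SWN-GFP val1 val2, against 41.0 and 33.9 in SWN-GFP, both higher without VAL1 and VAL2. The ranks depend on the list: the fold of 2.85 in SWN-GFP val1 val2 replicate 1 ranked above the 2.90 in SWN-GFP replicate 1. Of the kept protein-coding genes, 39.2% had a percentile higher in both double mutant lists. GL1 was covered over 488 and 821 bp in SWN-GFP val1 val2, against 508 and 462 bp in SWN-GFP (exact permutation p = 0.667, two-sided). The 821 bp came from SWN-GFP val1 val2 replicate 2, which had a second, short peak of 200 bp at 10362047 to 10362246 with a fold of 2.17. Its percentile was 8.91, and 41.8% of the peaks in the same 10% slice of its list by fold recurred in the other replicate.

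WER (AT5G14750), the R2R3-MYB activator of the non-hair cell fate in roots, had no peak in its window in any list. The nearest peak lay 4076 and 3949 bp below the WER span in SWN-GFP val1 val2, against 3796 and 3942 bp below it in SWN-GFP. In all 4 lists that peak overlapped CA2, a carbonic anhydrase gene, with a fold of 2.75 and 2.47 in SWN-GFP val1 val2, against 2.77 and 2.44 in SWN-GFP. An absent peak says only that the signal stayed under the threshold of the caller, itself set by depth and control, and not that SWN was missing there.

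GL3 (AT5G41315), the helix-loop-helix partner of the MYB activators, was covered less and ranked lower in both double mutant lists. It was covered over 1110 and 1116 bp in SWN-GFP val1 val2, against 2349 and 1977 bp in SWN-GFP. The means were 1113 ± 4.2 bp in SWN-GFP val1 val2, against 2163 ± 263 bp in SWN-GFP (SD, n = 2 each), a difference of -1050 bp or -48.5% (exact permutation p = 0.33, the smallest possible). The genotypes did not overlap, and the same held in each of the 14 alternative settings tried. The 4 settings that left out a library could not have brought an overlap about. Those that changed the window or the overlap rule left the difference at -1050 bp, with every peak inside the span. With peaks of a fold of at least 3 the difference was -1786.5 bp. Among the 4971 kept protein-coding genes, 28.7% were covered less in both double mutant lists, and 2.68% had a difference as low as that of GL3 or lower. That rank is in bp and not corrected for length. The GL3 span is 4198 bp, against a median of 1834 bp for kept genes, so many of them had less to lose. The rank also leaves out the 1112 lost protein-coding genes.

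The peaks of GL3 all lay inside its span. The strongest one lay at chromosome 5, 16529808 to 16530398 and 16529858 to 16530360 in the double mutant lists, and 16529726 to 16530373 and 16529354 to 16530435 in the SWN-GFP lists. Its fold was 2.65 and 2.63 in SWN-GFP val1 val2, against 5.10 and 4.53 in SWN-GFP. The percentiles were 34.9 and 39.8 in SWN-GFP val1 val2, against 82.8 and 79.4 in SWN-GFP, a mean difference of -43.8 points. Of the kept protein-coding genes, 28.9% had a percentile lower in both double mutant lists, and 3.22% had a mean difference as low as this or lower. The pileup at the summit was 35 and 37 fragments in SWN-GFP val1 val2, against 46 and 46 in SWN-GFP. The local background worked out from pileup and fold was 12.6 and 13.5 in SWN-GFP val1 val2, against 8.22 and 9.37 in SWN-GFP. Over whole lists its median was 10.1 and 11.6 in SWN-GFP val1 val2, against 9.12 and 10.4 in SWN-GFP. Lower pileups and higher backgrounds thus both went with the lower folds, and their separate parts were not tested.

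A second stretch of GL3 toward its upper-coordinate end showed the same order. That peak spanned 221 and 413 bp in SWN-GFP val1 val2, against 1200 and 643 bp in SWN-GFP, with a fold of 2.56 and 2.50 in SWN-GFP val1 val2, against 3.35 and 3.44 in SWN-GFP. The part of the span nearest the lower-coordinate end held a peak in either SWN-GFP list, beginning 211 and 264 bp from that end, and peaks began only 718 and 768 bp from it in the double mutant lists. Short peaks between these stretches had a fold of 2.43 and 1.87 in SWN-GFP val1 val2, against 2.30 and 2.27 in SWN-GFP, at percentiles from 0.92 to 19.6. Counting peaks with a fold of at least 3, at least 4, or the strongest 2000 of each list, GL3 held a peak in the SWN-GFP lists only and was lost.

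GL2 (AT1G79840), the homeodomain target of the activator complex, had the highest fold of the 7 genes in every list, and a higher one in SWN-GFP val1 val2. Its window was covered over 3219 and 3303 bp in SWN-GFP val1 val2, against 2945 and 2935 bp in SWN-GFP. The means were 3261 ± 59.4 bp in SWN-GFP val1 val2, against 2940 ± 7.1 bp in SWN-GFP (SD, n = 2 each), a difference of 321 bp or 10.9% (exact permutation p = 0.33, the smallest possible). The genotypes did not overlap in any of the 14 alternative settings, of which the 4 that left out a library could not have brought an overlap about. The difference was 484.5 bp with peaks of a fold of at least 4 and 1144.5 bp with the strongest 2000 peaks of each list. These sizes turned on single peaks near a cut. At a fold of at least 4, the peak beyond the upper-coordinate end stayed only in SWN-GFP val1 val2 replicate 1. Among the strongest 2000, a peak of 1320 bp (percentile 73.8) fell out of SWN-GFP replicate 2. Its counterpart in SWN-GFP replicate 1 (percentile 78.8) stayed. The order at GL2 is common: 36.2% of kept protein-coding genes were covered more in both double mutant lists, and 22.3% by as many bp as GL2 or more.

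**Figure D2:**
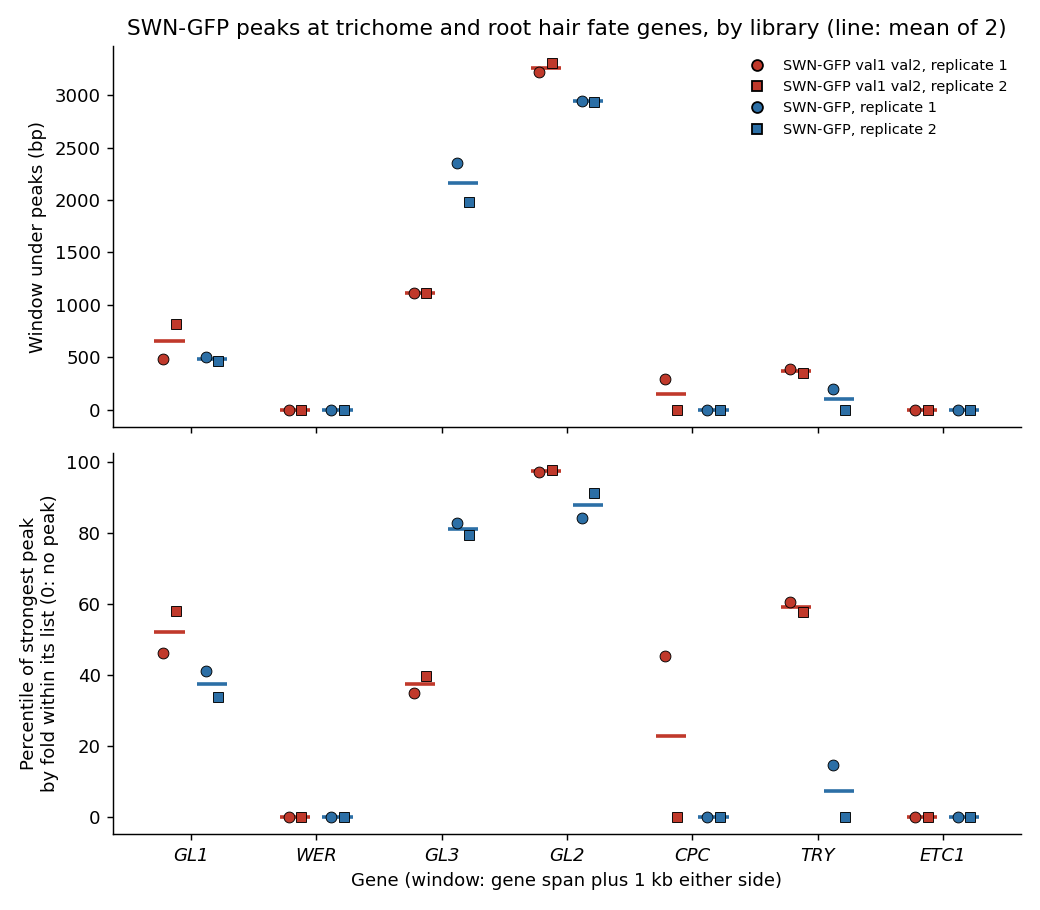
Upper panel, bp of each window (gene span plus 1 kb either side) under peaks; lower panel, percentile of the strongest peak by fold within its list, with 0 where there was no peak. Points are libraries and lines the mean of 2; GL3 is lower in SWN-GFP val1 val2 (red) in both panels, GL2 and TRY are higher, and WER and ETC1 are at 0 throughout.

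The main peak of GL2 was called as continuous in SWN-GFP val1 val2 and as separate peaks in SWN-GFP. It spanned 4384 and 4536 bp in SWN-GFP val1 val2, at chromosome 1, 30034503 to 30038886 and 30034387 to 30038922. In the SWN-GFP lists the same stretch held a peak of 1832 and 1307 bp around the lower-coordinate end of the span, at 30035314 to 30037145 and 30036023 to 30037329. These lists had a separate peak of 1400 and 1320 bp inside the span, at 30037408 to 30038807 and 30037484 to 30038803. By these coordinates the gap between the called peaks was short, and the part that depth or the caller's threshold had in it was not tested. The main peak began at -2453 and -2569 bp from the lower-coordinate end in SWN-GFP val1 val2, against -1642 and -933 bp in SWN-GFP. Any part more than 1000 bp outside the span was not counted, so the difference of 321 bp is that of the window only. The strongest summit lay outside the span, 221 and 272 bp below its lower-coordinate end in SWN-GFP val1 val2, against 188 and 223 bp below it in SWN-GFP. The summits therefore lay within 84 bp of each other, and the genotypes differed in extent rather than in place. No other gene of the table lay under this peak. The gene table gives no strand, so the summit cannot be assigned here to the promoter or the far end of GL2.

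Fold at that summit was 9.03 and 9.39 in SWN-GFP val1 val2, against 5.32 and 6.61 in SWN-GFP. The percentiles were 97.1 and 97.7 in SWN-GFP val1 val2, against 84.4 and 91.4 in SWN-GFP, a mean difference of 9.5 points that 31.4% of kept protein-coding genes reached or passed. The pileup was 94 and 110 fragments in SWN-GFP val1 val2, against 65 and 83 in SWN-GFP, and the local background was 9.52 and 10.8 in SWN-GFP val1 val2, against 11.4 and 11.7 in SWN-GFP. GL2 thus stood in the opposite order to GL3 in pileup, in fold and in covered length. From 1967 bp inside its lower-coordinate end to its upper-coordinate end, the GL2 span held no peak in any list.

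Another peak in the GL2 window lay beyond its upper-coordinate end and over ROPGEF12, a gene for a Rop guanine nucleotide exchange factor. Its summit lay inside ROPGEF12 in all 4 lists, 908 and 843 bp beyond the GL2 span in SWN-GFP val1 val2, against 969 and 890 bp beyond it in SWN-GFP. Fold was 4.70 and 3.96 in SWN-GFP val1 val2, against 3.06 and 2.49 in SWN-GFP. It counts toward the covered length of the GL2 window but not toward that of the GL2 span, where the difference was 307 bp in the same direction.

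**Figure D3:**
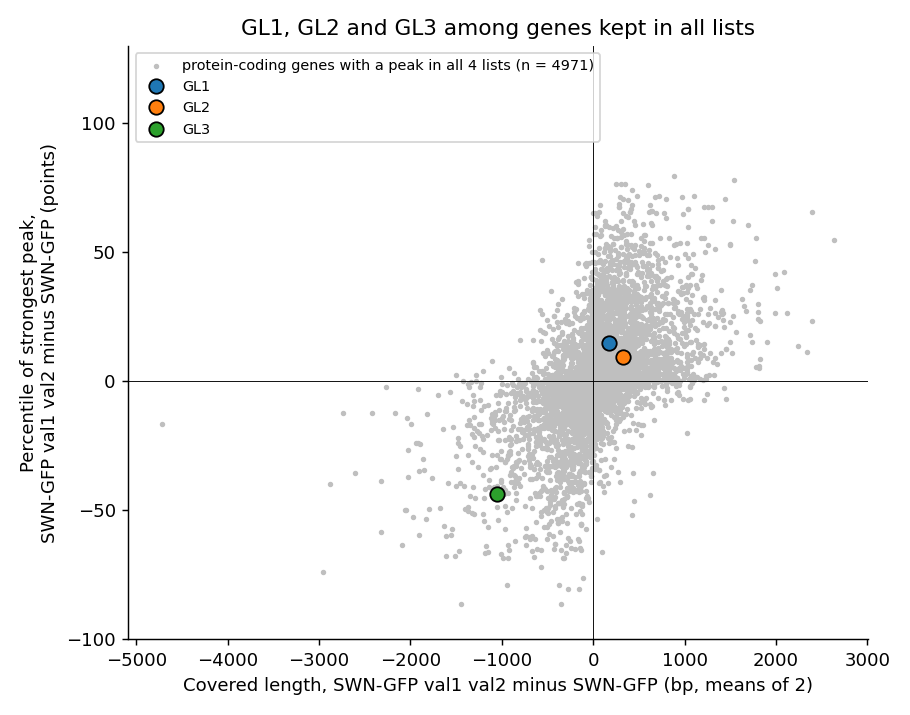
Each grey point is a protein-coding gene with a peak in all 4 lists, with SWN-GFP val1 val2 minus SWN-GFP differences in covered length (bp) and in percentile of the strongest peak (points), both as means of 2 libraries. GL3, at -1050 bp and -43.8 points, lies among the lower values, while GL1 and GL2 lie within the bulk.

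CPC (AT2G46410), an R3-MYB inhibitor that moves from non-hair to hair cells of the root, had a single peak, in SWN-GFP val1 val2 replicate 1. It covered 295 bp at chromosome 2, 19049965 to 19050259, inside the span, with a fold of 2.83 at percentile 45.5. In SWN-GFP val1 val2 replicate 2 the nearest peak was 15010 bp away, and in the SWN-GFP lists it was 30690 and 15025 bp away. Of the peaks in the same 10% slice of that list by fold, 78.7% recurred in the other replicate, and the CPC peak did not. The call rests on that library alone: the exact permutation p for covered length was 1, and without SWN-GFP val1 val2 replicate 2 the gene counted as gained.

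TRY (AT5G53200), an R3-MYB inhibitor that spaces trichomes, had a short peak inside its span in both double mutant lists and in SWN-GFP replicate 1. It lay at chromosome 5, 21582692 to 21583079 and 21582681 to 21583027 in SWN-GFP val1 val2, and 21582814 to 21583013 in SWN-GFP replicate 1. The covered length was 388 and 347 bp in SWN-GFP val1 val2, against 200 and 0 bp in SWN-GFP (exact permutation p = 0.33, the smallest possible). The 2 genotypes did not overlap, although SWN-GFP replicate 1 shared the site. Fold was 3.22 and 3.02 in SWN-GFP val1 val2, against 2.43 in SWN-GFP replicate 1, at percentiles of 60.5 and 57.8 in SWN-GFP val1 val2, against 14.5 in SWN-GFP replicate 1.

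The class of TRY depended on that weak SWN-GFP peak. Its −log10 q was 3.41, against 8.93 and 7.91 for the SWN-GFP val1 val2 peaks, and 55.1% of the peaks in its 10% slice of the list recurred in the other replicate. Without SWN-GFP replicate 1, or with a −log10 q of at least 5 or a fold of at least 3, TRY was gained. Without SWN-GFP replicate 2 it was kept. No list held a TRY peak with a fold of at least 4. In SWN-GFP replicate 2 the nearest peak lay 3451 bp above the TRY span and over SPCH, which encodes a helix-loop-helix factor that starts the stomatal lineage.

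ETC1 (AT1G01380), an R3-MYB inhibitor that acts redundantly with TRY and CPC, had no peak in its window in any list or alternative setting. The nearest peak lay 7638 and 7607 bp above its span in SWN-GFP val1 val2, against 7512 and 7445 bp above it in SWN-GFP. In all 4 lists that peak lay over UGT72B3, a glycosyltransferase gene.

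The genes most like each member were found from the percent of the window covered and the percentile of the strongest peak, 8 values over the 4 lists. Nearest to GL3 were AMT1;2, an ammonium transporter gene, and JAZ5, a jasmonate signalling repressor gene, at distances of 12 and 15.8 on a scale in which each value runs to 100. The strongest AMT1;2 peak ranked at percentiles 37.6 and 39.2 in SWN-GFP val1 val2, against 76.2 and 75.5 in SWN-GFP. Nearest to GL2 were AT1G65481 and EDA1, at distances of 8.36 and 8.50. Nearest to GL1 were AT1G28020 and AT4G38040 (15.5 and 15.8), to TRY AT5G53620 and AT1G15530 (10.4 and 10.9), and to CPC GILT and AT2G45530 (1.10 and 1.19), whose single peaks lay in the same list as that of CPC.

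The other 34 genes listed for the pathway were occupied more often than most genes. In that list 20 genes were kept (58.8%, against 18.1% of protein-coding genes), none was lost, 3 were gained, 2 were mixed, and 9 had no peak (26.5%, against 58.4%). Of the 20 kept genes 10 were covered more in both double mutant lists, against 36.2% of kept protein-coding genes, and 1 was covered less, against 28.7%. Over all 34 genes the median difference in covered length was 87 bp, where that over kept protein-coding genes was 36 bp. These medians are of unlike sets, since the 34 genes include the 9 without a peak. The median over all protein-coding genes was 0, since 58.4% of them had no peak in any list and so no difference. These genes were listed with earlier results of the data known, and the counts are given without a test.

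**Figure D4:**
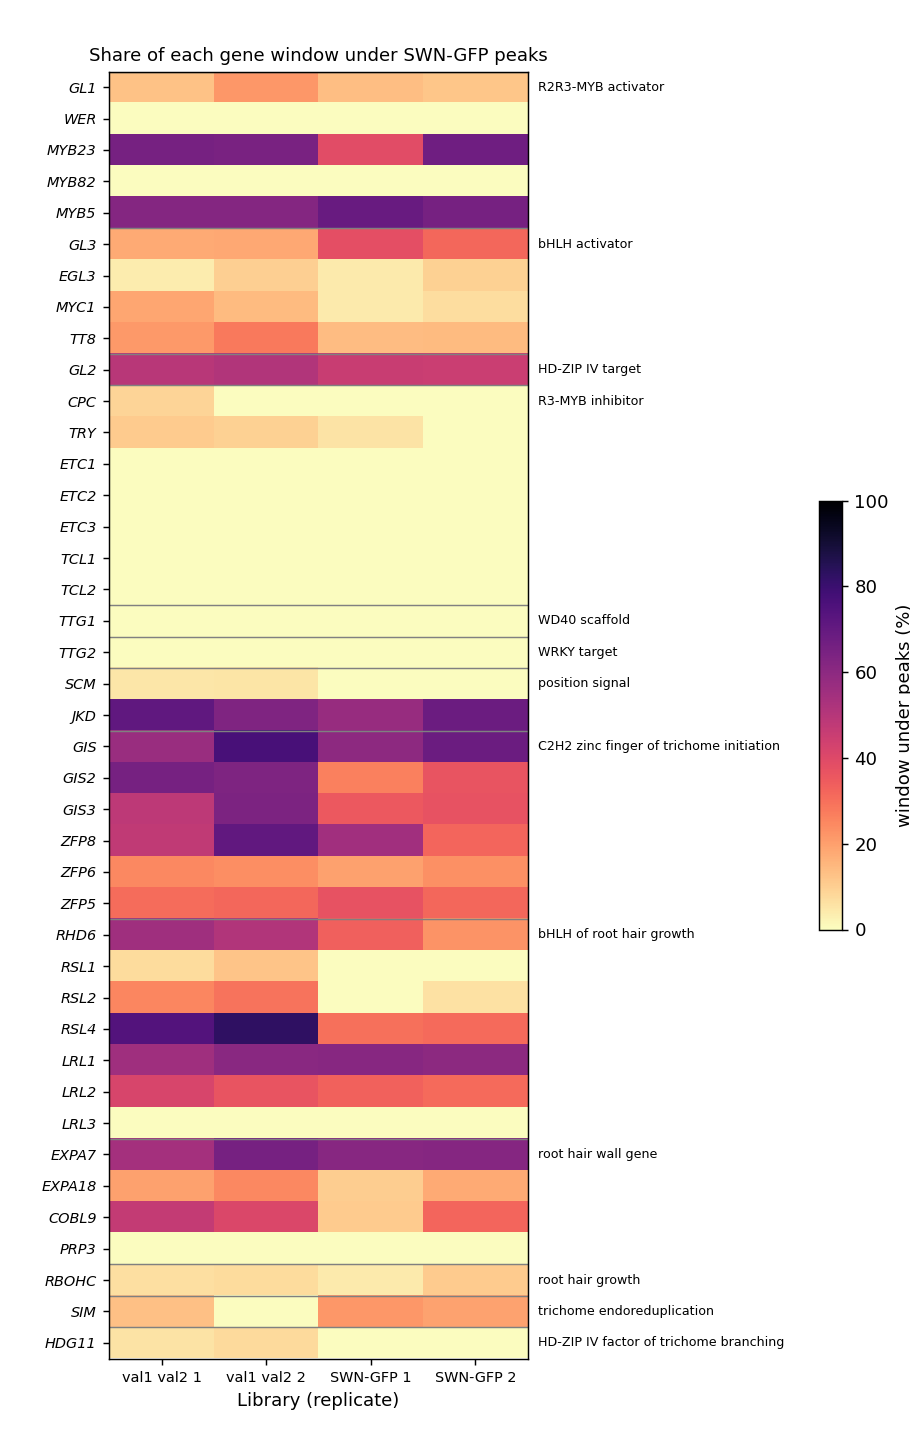
Percent of each gene window (gene span plus 1 kb either side) under SWN-GFP peaks, with genes in rows by role and the 4 libraries in columns; val1 val2 stands for SWN-GFP val1 val2. The helix-loop-helix activators and the zinc finger genes are covered in every library, and the R3-MYB inhibitors in few or none. The covered share is small at EGL3, down to 3.58%. Of all protein-coding genes, 18.1% had a peak in every list and 58.4% in no list.

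By role, the 4 helix-loop-helix activators GL3, EGL3, MYC1 and TT8 were all kept, as were the 6 zinc finger genes of trichome initiation around GIS. At EGL3 and MYC1 the calls were weak. EGL3 had a fold of 2.50 and 2.72 in SWN-GFP val1 val2, against 3.00 and 2.85 in SWN-GFP. MYC1 had 2.01 and 3.08 in SWN-GFP val1 val2, against 2.81 and 2.81 in SWN-GFP, and the 2.01 stood at percentile 1.89. Of all protein-coding genes 18.1% were kept. Of the 7 R3-MYB inhibitors none was kept, and 5 (ETC1, ETC2, ETC3, TCL1 and TCL2) had no peak in any list. These 5 are 71.4% of the role, near the 58.4% of protein-coding genes without a peak in any list. ETC2, TCL1 and TCL2 have locus tags close together on chromosome 2 (AT2G30420, AT2G30432 and AT2G30424), so they may not be separate cases. Of the 5 R2R3-MYB activators GL1, MYB5 and MYB23 were kept, and WER and MYB82 had no peak. MYB23, a close relative of GL1 and WER named here after its values were seen, had a fold of 16.3 and 15.7 in SWN-GFP val1 val2, against 11.6 and 13.2 in SWN-GFP. This is well above the folds of 2.66 to 3.03 at GL1. TTG1, the WD-repeat scaffold, and TTG2, a WRKY target of the complex, had no peak in any list.

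The 3 gained genes of the pathway list were SCM, a receptor kinase gene of root epidermal patterning, RSL1, a helix-loop-helix gene of root hair growth, and HDG11, a homeodomain gene of trichome branching. Their folds in SWN-GFP val1 val2 were 2.62 and 2.76 at SCM, 2.62 and 2.69 at RSL1, and 2.92 and 3.30 at HDG11. All 3 were weak peaks, at percentiles between 33.2 and 65.9, and at RSL1 the peaks of the replicates did not lie at the same place, with summits 1391 and 451 bp from the lower-coordinate end.

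The largest differences in covered length among the pathway genes were toward SWN-GFP val1 val2. RSL4, a helix-loop-helix gene that drives root hair elongation, was covered over 2670 and 2988 bp in SWN-GFP val1 val2, against 1073 and 1117 bp in SWN-GFP. COBL9, a wall gene of root hairs, was covered over 2164 and 1894 bp in SWN-GFP val1 val2, against 503 and 1506 bp in SWN-GFP. RHD6, a helix-loop-helix gene of root hair initiation, was covered over 2106 and 1930 bp in SWN-GFP val1 val2, against 1272 and 850 bp in SWN-GFP. In the same order, the mean difference was 917.5 bp at RSL2, 915.5 bp at GIS2 and 702.5 bp at TT8. These 6 were picked from genes whose genotypes did not overlap. Their exact permutation p of 0.33, the lowest this design allows, was therefore set by the choice. Of the 34 pathway genes 14 (41.2%) were covered more in both double mutant lists, against 13.3% of protein-coding genes. Among the root hair genes outside these 6, the mean difference was -128.5 bp at LRL1, -57 bp at EXPA7 and -42 bp at RBOHC, with overlapping genotypes. It was 0 at LRL3 and PRP3. Without overlap, it was 375 bp at RSL1, 365 bp at LRL2 and 304.5 bp at EXPA18. The strongest EXPA18 peak had its summit outside the window and inside another gene, AT1G62981. That summit lay 1322 and 1359 bp above the EXPA18 span in SWN-GFP val1 val2, against 1301 and 1348 bp above it in SWN-GFP.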

How the data were processed

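Peak lists of 4 immunoprecipitated libraries were analysed; no file of the 2 inputs was used. The submitters' processing notes name Bowtie2, SAMtools, Picard, MACS2 and build TAIR10, with versions, settings and controls not given in the sources used here. Peaks were called per library. The lists have no header, so their columns were taken to follow the usual MACS2 order. The deposited pileup is a signal in whole fragments; the deposited −log10 p and −log10 q are the peak caller's; the deposited fold is a ratio over local background. The local background was worked out as (pileup + 1)/fold − 1. The lowest −log10 q was 1.31 in 3 lists and 1.33 in SWN-GFP val1 val2 replicate 2. Read totals are not in the lists, so depth is unknown and no counting interval was given.

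Names and spans of genes were read from RefSeq's TAIR10.1 table, which keeps the nuclear chromosome sequences of TAIR10; its coordinates are not printed. All 41 locus tags (7 members and 34 others) matched. The table gives no strand. Overlaps were computed with Python 3.11.15, NumPy 2.4.6 and pandas 2.3.3, and tested on simulated data; exact two-sided permutation tests used SciPy 1.17.1. Members and lists were chosen with earlier results of these data known. Named genes were the members, genes under their peaks, the 2 nearest in pattern, and, of the other list, gained or lost genes and the 6 with the largest differences among those that did not overlap. Named outside that rule, after their values were seen, were the genes under the nearest peak of WER, TRY and ETC1. The same holds for pathway genes listed by role or among root hair genes. It also holds for MYB23, MYB5 with MAPKKK7, EXPA18 with AT1G62981, SIM with AT5G04475, LRL1 and JKD. Planned descriptions of promoter motifs and protein sequences were not run, since no sequence was used here. Alternatives changed the window, the peaks used, the overlap and the libraries.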

Additional observations from a re-analysis of the deposited data

How the results depend on the processing

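The orders at GL3 (less) and GL2 (more) were the same in all 14 settings, of which the 4 that left out a library could not have changed them. The sizes of both differences and the classes of the weakly bound genes varied. With all libraries in, the difference at GL3 ran from -1786.5 to -865 bp, furthest with a fold of at least 3. The difference at GL2 ran from 307 to 1144.5 bp. It was furthest with the strongest 2000 peaks, where a peak inside the span fell out of SWN-GFP replicate 2. At GL1, where the genotypes overlapped, it ran from -94 bp, with 2000 bp either side, to 310.5 bp. With a fold of at least 3, 1 member was kept, 1 lost, 1 gained and 1 mixed, 6 pathway genes were mixed, and the summed difference of the members was -633.5 bp, against -144.5 bp. With a fold of at least 4, 1 member was kept, 1 lost, 0 mixed, 5 had no peak and 1 was covered more; of the pathway genes 17 had no peak, 0 were gained, 1 was covered less and 8 more. With the strongest 2000 peaks, 1 member was kept, 1 lost, 0 mixed, 5 had no peak and 1 was covered more, with a summed difference of 279.5 bp; of the pathway genes 10 were kept, 6 mixed, 0 gained, 18 had no peak, 1 was covered less and 7 more. With a −log10 q of at least 5, 1 member and 1 pathway gene were gained, 7 pathway genes were mixed and 1 was covered less. With 2000 bp either side, 1 pathway gene was lost and 4 were covered less. Stricter settings use fewer peaks by construction; other causes were not tested. With single libraries left out, the members held 0 to 1 gained, 3 to 4 kept and 1 mixed gene and a summed difference of -458.5 to 169.5 bp, and the pathway genes 0 to 1 lost, 1 mixed and 2 to 7 covered less. The labels tie same-numbered replicates by number only, and their deviations correlated at 0.027 over 4971 kept genes. Replicate 2 had more peaks than replicate 1 in SWN-GFP val1 val2 (9618 against 9177) and in SWN-GFP (8666 against 8189). Whether same-numbered libraries shared a batch was not tested. With the replicate number as a block, the differences stayed at -1050, 321, 267.5, 169.5 and 147.5 bp for GL3, GL2, TRY, GL1 and CPC, with an exact permutation p of 0.5 at the least.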

Other observations

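Some genes of the pathway list are described here after their values were seen. At LRL1 and MYB5 the fold was above that of each of the 7 fate genes in all 4 lists. LRL1, a helix-loop-helix gene of root hair growth, had a fold of 12.7 and 13.2 in SWN-GFP val1 val2, against 14.4 and 14.3 in SWN-GFP. MYB5, an R2R3-MYB gene of trichomes and seed coat, had 14.9 and 13.2 in SWN-GFP val1 val2, against 14.2 and 15.7 in SWN-GFP, under peaks that also overlapped MAPKKK7. JKD, a zinc finger gene that feeds position into root epidermal patterning, had 7.35 and 9.08 in SWN-GFP val1 val2, against 8.40 and 9.29 in SWN-GFP, which is below GL2 in both double mutant lists and above it in both SWN-GFP lists. SIM, an inhibitor gene of the trichome cell cycle, was covered over 359 and 0 bp in SWN-GFP val1 val2, against 604 and 539 bp in SWN-GFP. Each of its peaks also overlapped AT5G04475, and each summit lay inside both genes. With MYB5, SIM was one of the 2 pathway genes covered less in both double mutant lists.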
